A study of Mus musculus with 8 samples.

Results

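CD4 T cells that shared a T cell receptor beta chain with another CD4 cell of the same mouse were compared with CD4 T cells whose beta chain was met once. The cells were leukocytes sorted as live and CD45 positive from liver metastases of mice, 30 days after colorectal cancer cells of the Venus-AKTPM/LOH line were injected into the spleen. Droplets gave a 5′ gene expression library and a receptor (TCR) library from each of 4 mice, 8 libraries in all, each aimed at 10000 cells. In 2 mice Tet2, an enzyme that oxidises methylated cytosine in DNA, was deleted with Vav1Cre (Vav1CreTet2KO, called knockout 1 and 2), and 2 mice were Tet2fl/fl controls (control 1 and 2). Vav1 sequences drive the Cre recombinase in blood-forming cells and their progeny, so the deletion is not limited to T cells, and the injected tumour cells are not its target. The ages and sexes of the mice are not given in the sources used here. Values of the 4 mice are given below in the order knockout 1, knockout 2, control 1, control 2 unless the mice are named.

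A cell was taken as a CD4 cell when it had at least 200 genes detected, at most 10% mitochondrial UMIs (unique molecular identifiers, 1 per captured RNA molecule), at least 1 Cd4 UMI, no UMI of Cd8a or Cd8b1 and a beta chain (TRB) in the receptor library. This gave 1435 cells of 48214 cells that passed the filters, of which 7452 had a beta chain. The mice gave 430, 411, 229 and 365 of these CD4 cells. A clone was a set of cells of 1 mouse with the same V segment, J segment and nucleotides of the third complementarity determining region (CDR3) in the beta chain with most UMIs. A clone of 2 or more CD4 cells was called expanded, and a clone of 1 was called single. The expanded class held 574 cells in 147 clones (223, 134, 65 and 152 cells), and the single class held 861 cells (207, 277, 164 and 213). Every one of the 1435 cells had a UMI of a Cd3 gene or Trac. In B cells of the same libraries, a Cd4 UMI was found in 0.346%, 0.450%, 0.542% and 0.132% of cells, a background level for a cell type that should lack it. These B cells were chosen by at least 2 Cd79a UMIs, no Cd3e UMI and no alpha or beta chain. Barcodes with captured Cd3e or receptor RNA thus do not enter this background.

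The chains of a T cell receptor are assembled during maturation in the thymus, by joining gene segments with bases added or removed at the joins. The beta chain is joined from V, D and J segments, and its sequence is then inherited by the daughters of the cell. Cells of 1 mouse with the same joined sequence are therefore mostly descendants of 1 ancestor that divided, in the tissue or elsewhere. A clone was defined here by the beta chain alone, so its cells need not share an alpha chain. Where the cells divided was not tested. CD4 T cells include naive cells that recirculate through blood and lymph nodes, helper cells that secrete cytokines after meeting antigen, and regulatory T cells that restrain the others and are set by the transcription factor FOXP3. Repeated stimulation through the receptor is known to raise inhibitory receptors such as PD-1 and LAG-3.

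The beta chain sequences of 8 large clones are printed first, those whose expression is described one by one further on, since the sequence defines the unit that all later counts rest on. They include the largest clone of each mouse. Clones of knockout 1 with 8 to 11 cells, and its clones of 7 cells with TRBV12-1 or TRBV1, are not printed. Capitals mark the junction, which is the stretch between the start shared by at least 50% of CDR3s that use the same V segment and the end shared likewise for the J segment. All are read 5′ to 3′ from the deposited receptor tables.
Control 2, 86 cells, TRBV13-3 with TRBJ1-4: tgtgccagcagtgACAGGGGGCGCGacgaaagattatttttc
Knockout 1, 21 cells, TRBV1 with TRBJ2-1: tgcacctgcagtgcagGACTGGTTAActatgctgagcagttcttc
Knockout 1, 18 cells, TRBV5 with TRBJ2-4: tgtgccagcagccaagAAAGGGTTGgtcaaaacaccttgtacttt
Control 1, 10 cells, TRBV13-1 with TRBJ2-1: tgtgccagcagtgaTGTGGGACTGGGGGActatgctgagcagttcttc
Knockout 2, 9 cells, TRBV31 with TRBJ2-5: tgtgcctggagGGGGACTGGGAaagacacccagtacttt
Control 2, 7 cells, TRBV20 with TRBJ1-1: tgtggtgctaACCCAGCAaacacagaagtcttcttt
Knockout 1, 7 cells, TRBV26 with TRBJ2-7: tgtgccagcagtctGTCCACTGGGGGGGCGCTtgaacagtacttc
Knockout 2, 7 cells, TRBV12-1 with TRBJ2-4: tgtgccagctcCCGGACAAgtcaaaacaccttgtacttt
The segments lie in the beta chain locus on chromosome 6 (GRCm39), with Trbv13-3 at chr6:41107081-41107519, Trbj1-4 at chr6:41511745-41511795, Trbv1 at chr6:40868163-40868819 and Trbj2-1 at chr6:41519688-41519737, all on the plus strand. Junctions of these 8 clones held 8 to 18 bases, and none of the 8 sequences was found in the CD4 cells of another mouse.

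Expanded clones took 51.9%, 32.6%, 28.4% and 41.6% of the CD4 cells of the 4 mice. The exact (Clopper-Pearson) 95% intervals were 47.0% to 56.7% in knockout 1, 28.1% to 37.4% in knockout 2, 22.6% to 34.7% in control 1 and 36.5% to 46.9% in control 2. They take cells as independent draws and cover no spread between mice. Cells of 1 clone enter the expanded class together, so these intervals are likely too narrow even for counting error. Knockout 1 was highest and control 1 lowest, with 1 mouse of each genotype between them. The mean was 42.2% ± 13.6 (SD, n = 2) in knockouts and 35.0% ± 9.38 (SD, n = 2) in controls, a difference of 7.22 percentage points that an exact permutation test did not call (two-sided p = 0.667, with 0.333 the smallest p that 2 against 2 mice can give). Without knockout 1 the difference was −2.41 points, so its direction rested on that mouse. Drawn down to 229 cells in every mouse, the expected shares were 45.4%, 24.4%, 28.4% and 36.9%.

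How the expanded cells were spread over clones differed from mouse to mouse. The largest clone held 21, 9, 10 and 86 cells, which is 4.88%, 2.19%, 4.37% and 23.6% of the CD4 cells, and the second largest 18, 7, 6 and 7. Knockout 1 had 30 clones of 3 or more cells against 19, 7 and 8 in the other mice, while control 2 had 1 clone that stood far above the rest. The chance that 2 cells drawn from 1 mouse share a clone was 0.846%, 0.197%, 0.398% and 5.60%. With the largest clone of each mouse left out it was 0.683%, 0.161%, 0.247% and 0.160%, so the high value of control 2 came from a single clone. Leaving these 4 clones out also changed the shares of cells in expanded clones to 49.4%, 31.1%, 25.1% and 23.7%. Both knockouts were then above both controls (difference 15.9 points, exact permutation p = 0.333, the smallest possible). These shares were not drawn down to an equal number of cells, and the controls had fewer CD4 cells. At 229 cells knockout 2 was at 24.4% with its largest clone kept, so the order of the genotypes was not tested at equal depth.

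**Figure D1:**
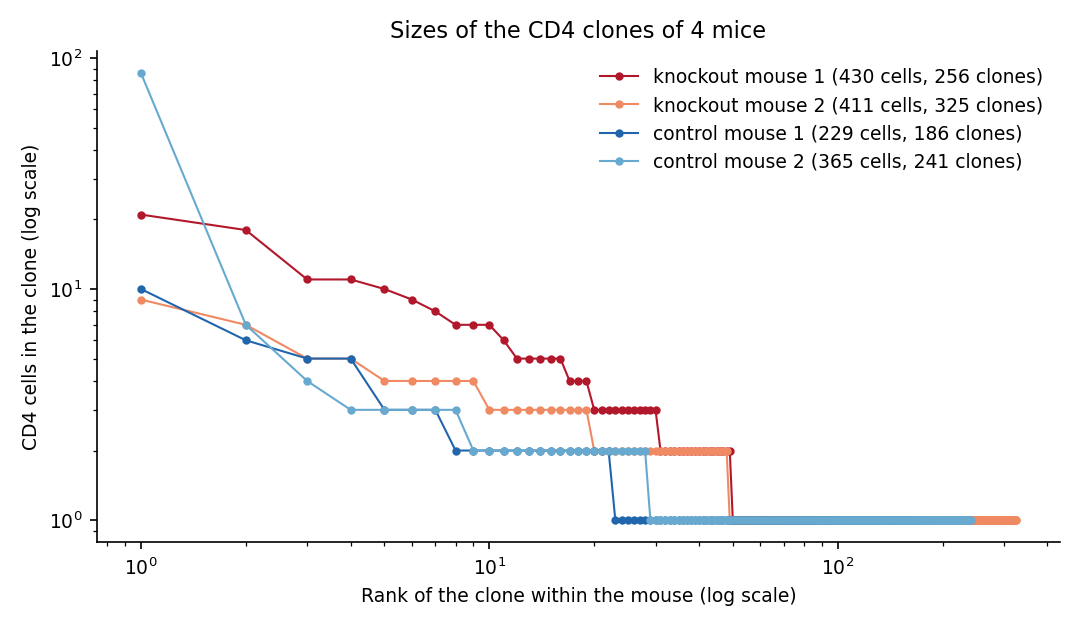
Cells per CD4 clone (vertical axis, log scale) against the rank of the clone within its mouse (horizontal axis, log scale), 1 line per mouse. The line of control 2 starts at 86 cells and drops to 7 at the second clone, while that of knockout 1 starts at 21 and 18 cells.

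The alpha chain, which the clone definition did not use, gave a separate check of the clones. It was compared as the alpha chain with most UMIs in each cell, and 21.1%, 7.46%, 18.5% and 9.21% of expanded cells had 2 alpha chains. Of 131 expanded clones in which this chain could be compared, 114 (87.0%) had the same one throughout. Cells of the same clone had the same alpha chain in 75%, 94.3%, 90.9% and 99.8% of pairs, against 0.0273% of pairs from different clones of 1 mouse taken over all mice. In control 2 most of the same-clone pairs lay within the clone of 86 cells. The clone of 86 cells paired with TRAV7N-6 and TRAJ28 in 83 of the 83 cells with an alpha chain. Its alpha CDR3 was the same in all of them.
Control 2, alpha chain of the clone of 86 cells: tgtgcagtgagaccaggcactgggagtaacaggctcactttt
The clones of 21 and 18 cells in knockout 1 had their commonest alpha chain in 15 of 20 and 15 of 18 cells. Each had 1 other chain with most UMIs in the rest. Whether cells of these clones carried both chains was not tested.

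The Cd4 and Cd8 rule set the edge of a clone, and some clones crossed it. Among single cells, 11, 21, 16 and 20 (5.31%, 7.58%, 9.76% and 9.39%) had a cell with the same beta chain outside the CD4 gate. Of the expanded clones, 5, 5, 3 and 2 also had a cell with a Cd8a or Cd8b1 UMI, and these clones held 38, 14, 10 and 88 CD4 cells. For the clone of 86 cells the receptor table held 114 cells with the sequence, of which 3 had a Cd8 UMI. In cells with a beta chain and a Cd8 UMI, 1.54% to 2.66% also had a Cd4 UMI.

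UMIs were then summed over the cells of each class in each mouse, giving 8 sums of 454950 to 1941153 UMIs, and compared with the mouse as a block. The gene expression libraries themselves held 57190926 to 91789597 UMIs. Tet2 stood at 37.5 and 32.3 CPM (UMIs scaled to a library total of 1000000) over all cells of the knockout libraries and at 66.7 and 65.7 in the controls; whether the counted 5′ reads fall in the deleted part of the gene is not given in the sources used here. In such sums a larger share of cells of a kind and more RNA per cell cannot be told apart. The mice are the replicates here. The edgeR p-values use the spread of the class difference over 4 mice, with the variance of each gene moderated by that of the other genes tested.

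Of 7941 genes tested, 101 differed between expanded and single clones (edgeR quasi-likelihood test, Benjamini-Hochberg adjusted p under 0.05), which is 1.27% of those tested. Of these, 40 rose in expanded clones (0.504%) and 61 fell (0.768%), and 100 of the 101 moved the same way in all 4 mice. Over all genes tested, 17.4% moved the same way in all 4 mice, 8.22% up and 9.21% down, and the median log2 difference was −0.00337. The genes that rose were led by inhibitory receptors, with Lag3 first, and the genes that fell by genes of naive and recirculating T cells, with Lef1 and Igfbp4 first. The number of calls depended on which mouse was in the fit, from 17 genes without knockout 1 and 28 without knockout 2 to 87 without control 1 and 264 without control 2. Fitted without the block for mouse, 1 gene was called, Igfbp4. With at least 2 Cd4 UMIs per cell 8 genes were called, 6 of them among the 23 tested of the 28 called genes picked for description; Lag3, Tigit, Havcr2, Lef1 and Igfbp4 were among the 6 and Pdcd1 was not.

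Lag3, an inhibitory receptor that binds MHC class II, on chromosome 6 at chr6:124881320-124888765 (minus strand), stood at 16.7, 38.6, 37.8 and 76.3 CPM in single clones and at 59.4, 145, 144 and 430.3 CPM in expanded clones. It was higher in the expanded class of every mouse, although the single class of control 2 was above the expanded class of knockout 1. The log2 difference was 2.10 ± 0.15 (SE; adjusted p = 9.84e-07), and it stayed between 1.91 and 2.17, past the threshold, with any 1 mouse left out. A Lag3 UMI was found in 64 of the 147 expanded clones, 20 of 49, 26 of 48, 4 of 22 and 14 of 28 in the 4 mice. In control 2, 68.2% of the Lag3 UMIs of expanded clones came from the clone of 86 cells, and in control 1, 52 of the 68 UMIs (76.5%) came from 1 clone that was not its largest, so the higher level of control 1 rested mostly on that clone. Without the largest clone of each mouse the log2 difference was 2.08 (adjusted p = 1.2e-08), and with 1 cell taken per expanded clone 1.89 (adjusted p = 0.000622).

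Tigit, an inhibitory receptor for CD155 (chr16:43469100-43484509, minus strand), was at 115, 166, 184 and 360.3 CPM in single clones and at 212, 397, 373 and 732 CPM in expanded clones. The log2 difference was 1.05 ± 0.11 (SE; adjusted p = 0.000148; edgeR), 0.98 to 1.10 with any 1 mouse left out. Havcr2, which encodes TIM-3 (chr11:46345673-46374149, plus strand), was at 14, 12.0, 25.2 and 26.0 CPM against 35.5, 39.1, 48.7 and 85.8 CPM. Every expanded value of Havcr2 was above every single value, and the log2 difference was 1.47 ± 0.21 (SE; adjusted p = 0.0018), 1.36 to 1.61 with 1 mouse left out. In control 2, 85.1% of its UMIs in expanded clones came from the clone of 86 cells, and with 1 cell taken per expanded clone Havcr2 was not called (0.90, adjusted p = 0.357). Pdcd1, which encodes PD-1 (chr1:93966027-93980312, minus strand), was at 138, 157, 161 and 159.7 CPM in single clones and at 326, 439.6, 254 and 726 CPM in expanded clones. Its classes did not overlap either, with a log2 difference of 1.42 ± 0.23 (SE; adjusted p = 0.0363), but the call was lost without knockout 1 (1.47, adjusted p = 0.23) and without knockout 2 (1.40, adjusted p = 0.166). A Pdcd1 UMI was found in 123 of the 147 expanded clones and a Tigit UMI in 128. In control 2, 76.0% of the Pdcd1 UMIs and 66.8% of the Tigit UMIs of expanded clones came from the clone of 86 cells.

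In the whole list of inhibitory receptors and exhaustion genes, 6 of 20 tested genes rose and none fell, beside 0.504% of all genes that rose. In the same list 9 genes were higher in all 4 mice, beside 8.22% of all genes. The median log2 difference of the list was 0.42, with medians of 0.48, 0.63, 0.21 and 0.63 in the 4 mice. The other members that rose were Entpd1, the ectoenzyme CD39 that breaks down extracellular ATP (log2 0.83, adjusted p = 0.0313), and Cd200r1, an inhibitory receptor for CD200 (1.02, adjusted p = 0.0243). Cd200r1 was below the threshold without knockout 1 (1.00, adjusted p = 0.215), knockout 2 (1.12, adjusted p = 0.0905) or control 2 (0.77, adjusted p = 0.0761). Ctla4 and Tox, an inhibitory receptor and a transcription factor of chronically stimulated T cells, did not pass the test, at log2 differences of 0.08 and 0.27.

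**Figure D2:**
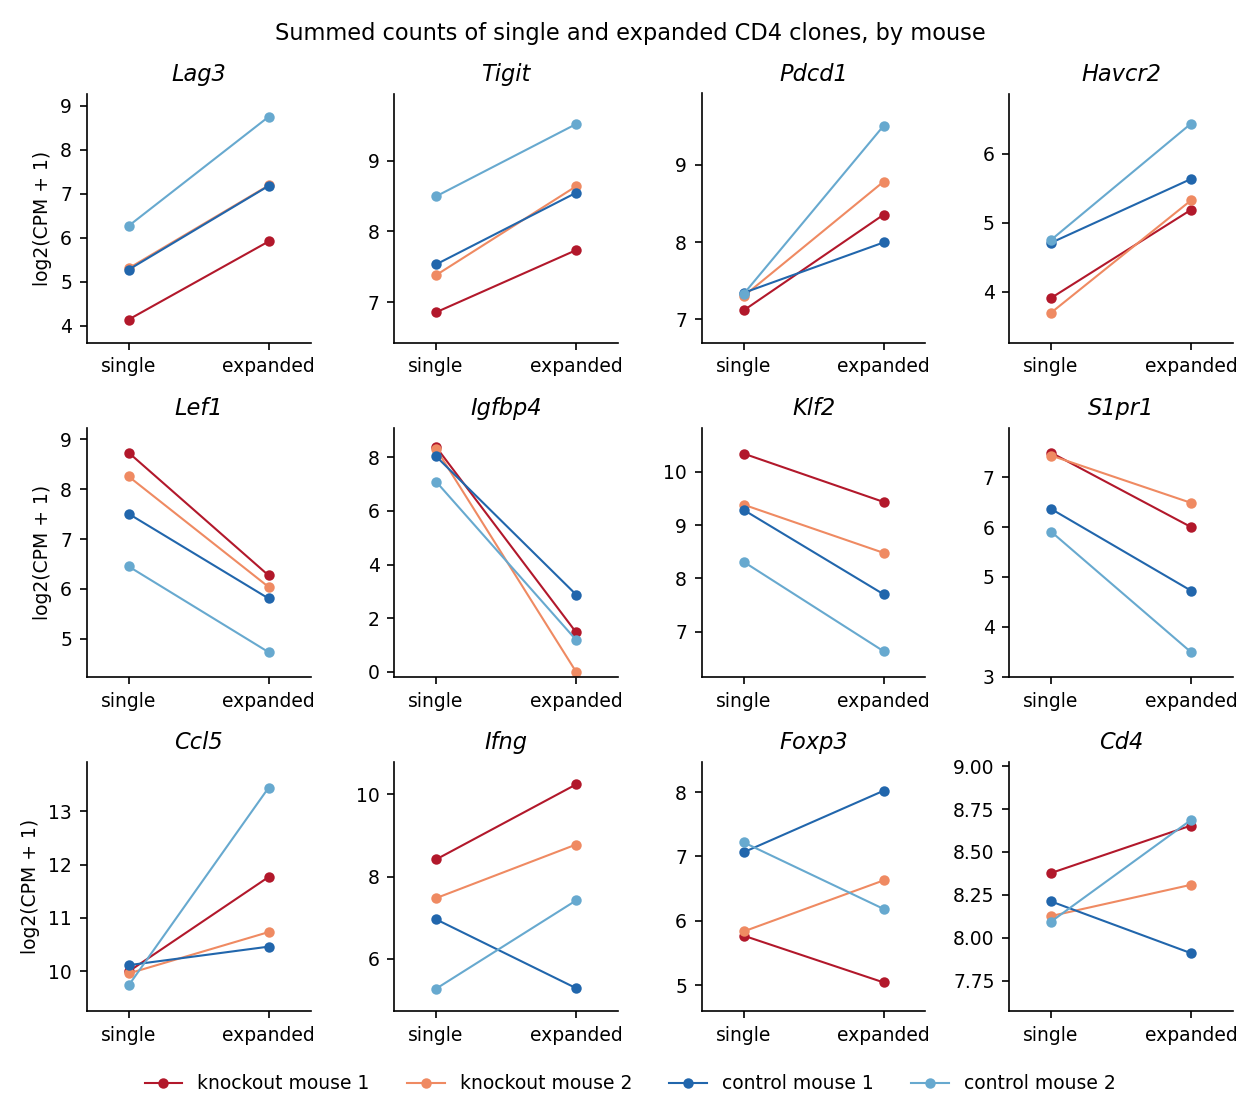
Expression of 12 genes in the single and expanded clones of each mouse, as log2 of CPM plus 1 (vertical axis), 1 line per mouse and 1 panel per gene. All 4 lines climb for Lag3, Tigit, Pdcd1 and Havcr2 and drop for Lef1, Igfbp4, Klf2 and S1pr1, whereas the lines of Foxp3 and Ifng cross.

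Genes of naive and central memory T cells were among those that fell. Of 18 tested members of that list 9 fell and none rose, beside 0.768% of all genes that fell, and 14 were lower in all 4 mice, beside 9.21% of all genes. The median log2 difference was −1.37, and −1.54, −0.93, −1.67 and −1.48 in the 4 mice. Lef1, a transcription factor of naive T cells downstream of WNT signals (chr3:130903919-131018005, plus strand), was at 425, 305, 181 and 86.5 CPM in single clones and at 76.3, 64.9, 55.1 and 25.6 CPM in expanded clones. All expanded values were below all single values, with a log2 difference of −2.12 ± 0.15 (SE; adjusted p = 9.84e-07; edgeR).

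Igfbp4, a secreted binding protein for insulin-like growth factors that marks recent thymic emigrants and naive CD4 cells in mice (chr11:98932064-98945218, plus strand), was close to missing from expanded clones. The single class had 380, 583, 228 and 172 UMIs of it, in 71 of 207, 90 of 277, 40 of 164 and 24 of 213 cells, or 333, 317, 261 and 135 CPM. The expanded class had 2, 0, 3 and 1 UMIs, or 1.77, 0, 6.36 and 1.28 CPM, and 3 of 147 expanded clones held all 6 of them. The fitted log2 difference of −7.13 rests on these few UMIs and on the model's handling of the 0, so its size is not meaningful (adjusted p = 9.84e-07). When clones were defined by the amino acids of the beta chain in place of its bases it was −5.44 and not called (adjusted p = 0.173).

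Nsg2, a vesicle protein gene of neurons also read in young T cells (chr11:31950387-32009211, plus strand), was at 100, 58.2, 38.9 and 26.0 CPM in single clones and at 6.21, 8.24, 4.24 and 6.40 CPM in expanded clones (log2 −3.14 ± 0.29, SE; adjusted p = 2.79e-05; edgeR). Ly6c1, a surface protein of some naive and memory T cells, was at 82.4, 54.4, 32.1 and 9.44 CPM against 3.55, 9.27, 0 and 0 CPM (−3.65, adjusted p = 0.000314). Rflnb, a regulator of the actin-binding filamins, fell by 1.87 on the log2 scale (adjusted p = 0.000102). Klf3, Foxp1 and Bach2, transcription factors that hold T cells in a resting state, also fell (log2 −1.40, −0.77 and −1.25). Tcf7, the partner of Lef1, missed the threshold with 325, 189.8, 203 and 109 CPM against 113, 81.3, 21.2 and 20.5 CPM (−1.85, adjusted p = 0.0523), as did Ccr7, the receptor that guides T cells into lymph nodes (−1.33, adjusted p = 0.499). Tcf7 was lower in all 4 mice, and it passed without the largest clone of each mouse (−1.62, adjusted p = 0.00122).

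Klf2 and S1pr1, which govern exit from tissue and were counted in the naive list too, fell as well. Klf2, the transcription factor that switches on egress receptors (chr8:73072726-73075502, plus strand), was at 1295, 667, 623 and 317 CPM in single clones and at 691, 356, 208 and 98.6 CPM in expanded clones. S1pr1, the receptor that leads T cells out along sphingosine-1-phosphate and a target of KLF2 (chr3:115504071-115508721, minus strand), was at 179, 172, 81.3 and 59.0 CPM against 63.0, 88.5, 25.4 and 10.2 CPM. Within each mouse both were lower in the expanded class, but across mice the classes overlapped. Klf2 fell by 1.24 ± 0.15 (log2, SE; adjusted p = 0.000589; edgeR) and S1pr1 by 1.46 ± 0.19 (adjusted p = 0.00146), the latter not called without knockout 1 (−1.45, adjusted p = 0.056). Klf2 was not called with at least 2 Cd4 UMIs per cell (−0.80, adjusted p = 0.133) or against clones of 3 or more cells (−1.50, adjusted p = 0.238), nor S1pr1 with at least 2 Cd4 UMIs (−1.02, adjusted p = 0.137).

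Some genes of tissue residence rose. Rgs1, a brake on chemokine receptor signals found in resident T cells, was at 540.3, 573, 624 and 557 CPM in single clones and at 943, 783, 905 and 913 CPM in expanded clones, with no overlap between the classes (log2 0.63 ± 0.11, SE; adjusted p = 0.0107; edgeR), though not called without knockout 1 (0.56, adjusted p = 0.147) or knockout 2 (0.69, adjusted p = 0.0674). Rgs2 and Crem, a second regulator of this family and a transcription factor that answers cyclic AMP, rose by 0.53 (adjusted p = 0.0311) and 0.62 (adjusted p = 0.0408). Without knockout 1 they were at 0.52 (adjusted p = 0.23) and 0.53 (adjusted p = 0.416), without knockout 2 at 0.49 (adjusted p = 0.276) and 0.50 (adjusted p = 0.393), and Crem without control 1 at 0.68 (adjusted p = 0.0733).

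In the tissue residence list 3 of 14 tested genes rose and none fell, beside 0.504% of all genes that rose, with a median log2 difference of 0.41 (0.62, 0.52, 0.15 and 0.38 in the 4 mice). In the egress and migration list 2 of 24 rose and 2 fell, beside 0.504% and 0.768% of all genes, among them the fractalkine receptor Cx3cr1 above and Klf2 and S1pr1 below. Cxcr6, a receptor for a chemokine made in liver, was at 209.6, 210.5, 153 and 102 CPM in single clones and at 626, 391, 223 and 561 CPM in expanded clones. It was higher in every mouse and every expanded value was above every single value, yet the model did not call it (log2 1.38, adjusted p = 0.311). Without the largest clone of each mouse it was 1.25 and called (adjusted p = 0.00266).

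Genes of effector function were less uniform over mice. Of the type 1 helper list 1 of 21 tested genes rose, Id2, and of the cytotoxic list 2 of 12, Cst7 and Cx3cr1, beside 0.504% of all genes. No member of either list fell. Id2, an inhibitor of DNA-binding proteins that favours effector cells, was at 493, 372, 560.0 and 378 CPM against 1115, 615, 824 and 566 CPM (log2 0.76 ± 0.12, SE; adjusted p = 0.00471; edgeR), and was not called without knockout 1 (0.62, adjusted p = 0.0839) or knockout 2 (0.78, adjusted p = 0.0648). Cst7, an inhibitor of the proteases that activate granzymes, was at 49.1, 75.6, 108 and 96.8 CPM against 90.5, 163, 125 and 283 CPM (0.98, adjusted p = 0.0292), and was not called without knockout 1 (1.00, adjusted p = 0.222) or knockout 2 (0.94, adjusted p = 0.181). Cx3cr1 rose by 1.20 (adjusted p = 0.0292) and was not called without knockout 1 (1.16, adjusted p = 0.206), knockout 2 (1.30, adjusted p = 0.181) or control 2 (1.05, adjusted p = 0.0853). The median log2 difference was 0.51 for the type 1 list and 0.86 for the cytotoxic list, and in control 1 both medians were below 0 (−0.06 and −0.65).

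The cytokine and granule genes themselves did not pass. Ccl5, a chemokine of memory and cytotoxic T cells, was at 1020.0, 994, 1107 and 851 CPM in single clones and at 3485, 1703, 1409 and 11120.0 CPM in expanded clones. It was higher in all 4 mice with no overlap, but the size of the difference varied widely (log2 1.61, adjusted p = 0.658). In control 2, 91.6% of the Ccl5 UMIs of expanded clones came from the clone of 86 cells. Ifng, the type 1 cytokine interferon gamma, was at 341, 177, 124 and 37.8 CPM against 1208, 439, 38.1 and 170.3 CPM, higher in 3 mice and lower in control 1 (1.16, adjusted p = 0.748). Gzmk, a granzyme of memory T cells, was at 1.75, 5.44, 48.1 and 81.0 CPM against 0, 12.4, 4.24 and 590.3 CPM, with 98.5% of the UMIs of expanded clones of control 2 in the same clone (1.48, adjusted p = 0.813, and −1.18 without the largest clone of each mouse). Nkg7 (log2 0.96), Gzmb (0.79), Tbx21 (0.25), Cxcr3 (0.23) and Il17a (1.26) did not pass either.

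Regulatory T cell genes as a group did not separate the classes. Of 21 tested members 1 rose, beside 0.504% of all genes, and the median log2 difference was 0.17. The member that rose was Tigit, which the inhibitory receptor list also holds. Foxp3 (chrX:7439883-7461484, plus strand) was at 53.5, 56.0, 133 and 148 CPM in single clones and at 31.9, 97.8, 259 and 71.7 CPM in expanded clones. It was higher in the expanded class of knockout 2 and control 1 and lower in that of knockout 1 and control 2 (log2 0.07, adjusted p = 0.988). Il2ra, the high affinity IL-2 receptor chain, was at −0.10, Ikzf2, which encodes HELIOS, at 0.25, and the receptors Tnfrsf4 and Tnfrsf18, which encode OX40 and GITR, at 0.29 and 0.28.

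The remaining lists of T cell function held no gene that rose or fell, apart from 2 lists with 1 gene each that rose. These were Pdcd1 in the follicular helper list (1 of 11) and Rgs1 among genes induced by receptor signals (1 of 21). Over all genes tested, 0.504% rose and 0.768% fell. None of 15 costimulatory receptor genes, 7 type 17 genes, 5 type 2 genes or 26 proliferation genes passed. Mki67, a marker of dividing cells, differed by 0.19, Cd40lg, the helper ligand for B cells and dendritic cells, by 0.29, and Icos by −0.21. None of 27 type I interferon genes passed, with 8 lower in all 4 mice, beside 9.21% of all genes, and a median of −0.28. None of 21 interferon gamma response, 20 oxidative phosphorylation, 18 glycolysis, 18 receptor complex, 10 DNA methylation or 21 dissociation stress genes passed, and their medians lay between −0.15 and 0.06. Tet2 itself differed by 0.05 on the log2 scale between the classes.

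**Figure D3:**
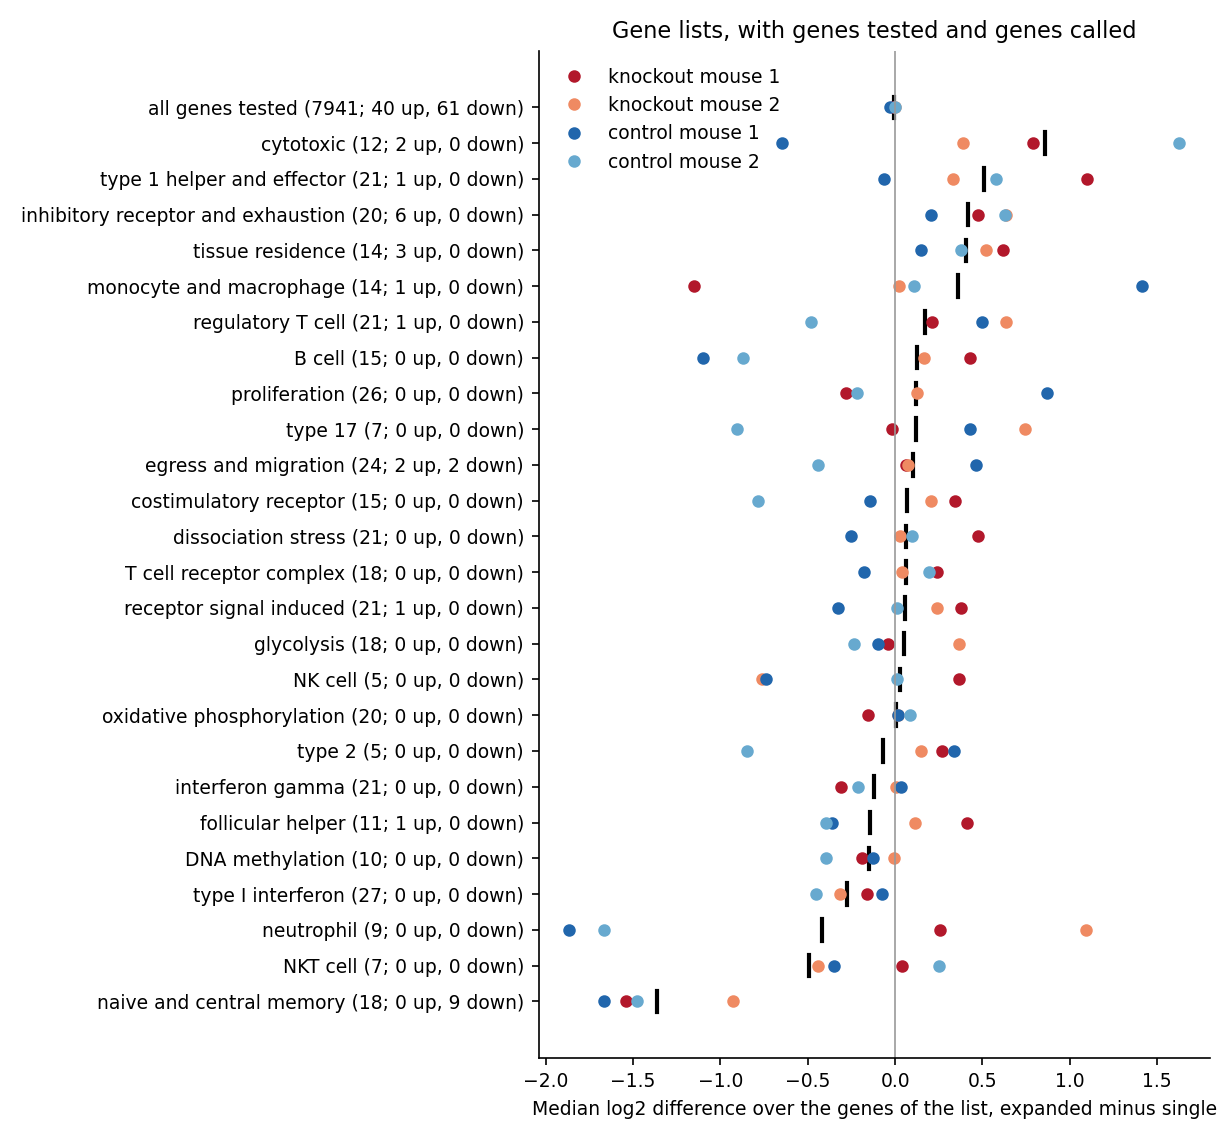
Median log2 difference, expanded minus single, over the tested genes of each list (horizontal axis), with 1 dot per mouse and a black tick for the median of the fitted differences; numbers beside each list give genes tested, risen and fallen. The 4 dots of the naive list lie between −1.67 and −0.93, while those of the cytotoxic list run from −0.65 to 1.63.

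Several genes outside the lists were among the largest changes. Rising genes were Cd101, an inhibitory surface protein of T cells (log2 1.15, adjusted p = 0.0305; edgeR), Rcn1, a calcium-binding protein of the endoplasmic reticulum (1.37, adjusted p = 0.0345), Tmem273 (1.27, adjusted p = 0.0292) and the gene model Gm36723 (1.33, adjusted p = 0.0202). None of these 4 was called without knockout 1 (1.03, 1.48, 0.95 and 1.38, with adjusted p of 0.256, 0.206, 0.292 and 0.245) or without knockout 2 (1.02, 1.43, 1.38 and 1.42, with adjusted p of 0.264, 0.169, 0.129 and 0.129). Cd101 was also lost without control 1 (1.24, adjusted p = 0.0535) and Rcn1 without control 2 (0.98, adjusted p = 0.141). Falling genes were Atp1b1, a subunit of the sodium pump (−2.18, adjusted p = 0.0018, called in each of the 3 fits without 1 mouse in which it was tested, and not tested without knockout 1), Frat2, an inhibitor of GSK3 (−1.72, adjusted p = 0.0145), Lrig1, a brake on growth factor receptors (−1.45, adjusted p = 0.015), and the gene model Gm56730 (−1.61, adjusted p = 0.00261). Without knockout 1, Frat2 was at −1.29 (adjusted p = 0.36), Lrig1 at −1.44 (adjusted p = 0.173) and Gm56730 at −1.55 (adjusted p = 0.0804), and without control 1, Frat2 was at −1.59 (adjusted p = 0.0515) and Lrig1 at −1.21 (adjusted p = 0.0655).

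RNA of other cell types was present in both classes. The summed level of the 15 B cell markers was 1677 to 8829 CPM in expanded clones and 2661 to 7921 CPM in single clones, higher in the expanded class of 3 mice and lower in control 2, and no B cell marker passed the test. Monocyte and macrophage markers summed to 1681 to 9161 CPM in expanded clones and 1808 to 5367 CPM in single clones. Of 14 tested members 1 rose, beside 0.504% of all genes. It was Spp1, which encodes osteopontin, at 12.3, 12.0, 20.6 and 11 CPM in single clones against 16.9, 21.6, 84.8 and 49.9 CPM in expanded clones (log2 1.45, adjusted p = 0.0243; edgeR). Spp1 UMIs were in 5, 5, 8 and 7 expanded cells, and the call was lost without knockout 2 (1.66, adjusted p = 0.0516) or control 1 (1.22, adjusted p = 0.138). Neutrophil markers summed to 756 to 2588 CPM against 246 to 7665 CPM with none of 9 called, and none of 5 tested NK cell genes was called. None of 7 NKT cell genes, 3 dendritic cell genes, 1 hepatocyte gene or 1 tumour epithelial gene tested was called, and no CD8 T cell, gamma-delta T cell or erythroid marker was abundant enough for the test. Cd8a and Cd8b1 were at 0 through the gate. The part of these cells' RNA in the T cell results was not tested.

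The 15 clones of 7 or more cells were looked at singly, as CPM of the UMIs of the clone. Their profiles differed from one another. The clone of 86 cells in control 2 had Ccl5 at 16548 CPM in all 86 cells, Nkg7 at 3769 CPM in 85 cells, Gzmk at 945 CPM in 82 cells and Gzmb at 857 CPM in 56 cells, with Pdcd1 at 897 CPM (73 cells), Tigit at 795 CPM (81 cells), Lag3 at 477 CPM (60 cells) and Cxcr6 at 695 CPM (73 cells). No UMI of Foxp3, Il7r, Cd40lg or Tcf7 was found in its cells. No cell of the other 14 large clones had a Gzmk UMI. The clone thus carried granule genes that are usual for cytotoxic T cells, while Cd4 was read at 435 CPM.

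Ifng was high in other clones. In the clone of 21 cells Ifng was at 1784 CPM (16 cells), Il7r, the receptor for interleukin 7, at 718 CPM (19 cells) and Cd40lg at 489 CPM (15 cells), and in the clone of 18 cells Ifng was at 1243 CPM (14 cells). The clone of 7 cells with TRBV12-1 and TRBJ2-4 in knockout 2 had Ifng at 2909 CPM (5 cells). In contrast the clone of 9 cells in knockout 2 had Il17a, the signature cytokine of type 17 helper cells, at 479 CPM (3 cells) and no UMI of Ifng, Pdcd1 or Lag3. That clone kept Il7r at 578 CPM and Klf2 at 892 CPM, each in all 9 cells, and Tcf7 at 231 CPM in 7 cells, so expanded clones were not all low in these genes. Il17a UMIs were found in 6 of the 147 expanded clones.

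Foxp3 UMIs were found in 3 large clones, and the other 12 had none. In the clone of 10 cells in control 1, Foxp3 was at 579 CPM (9 cells), Ctla4 at 1098 CPM, Tnfrsf4 at 1002 CPM, Tnfrsf18 at 628 CPM and Ikzf2 at 398 CPM, each of the latter 4 in all 10 cells, and Ifng had 12.1 CPM in 1 cell. In the clone of 7 cells with TRBV26 in knockout 1, Foxp3 was at 491 CPM and Gzmb at 2801 CPM in all 7 cells, with Ctla4 at 1164 CPM and no Pdcd1 UMI. The clone of 7 cells in control 2 had Lag3 at 2121 CPM, Tigit at 2363 CPM and Ctla4 at 3030 CPM, with Foxp3 in 2 of its cells (182 CPM). These are descriptions of single clones, and a level from 7 to 10 cells carries a wide counting error.

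**Figure D4:**
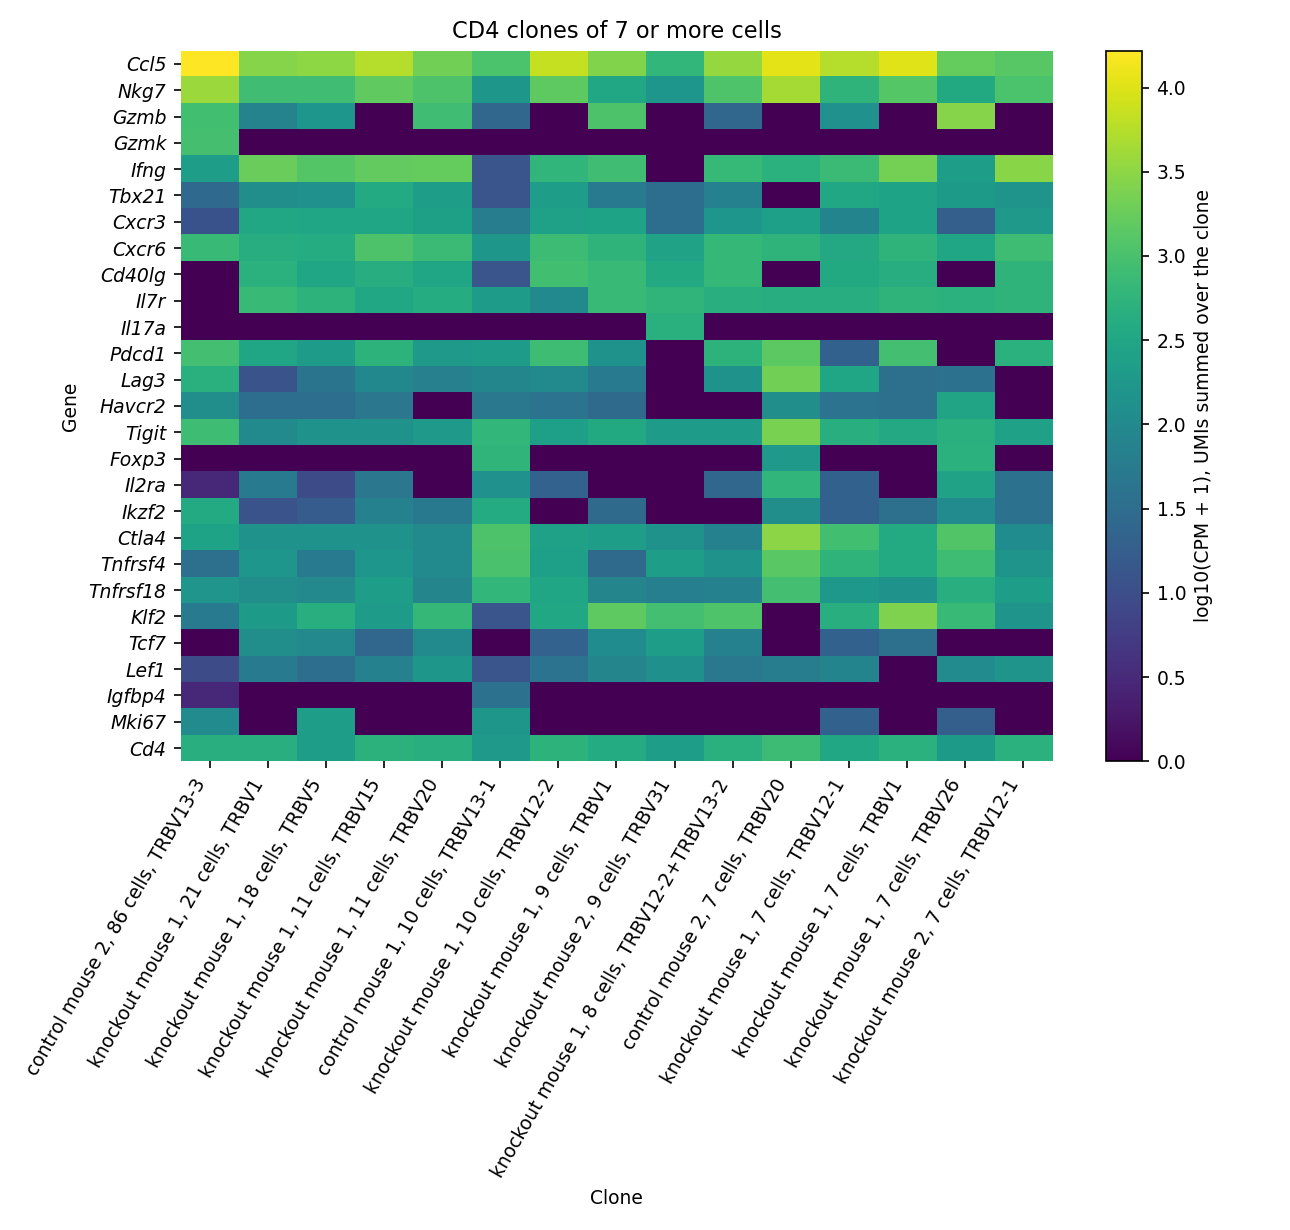
Level of 27 genes (rows) in the 15 CD4 clones of 7 or more cells (columns), as log10 of CPM plus 1 shown by colour. Gzmk is coloured in the clone of 86 cells alone, and Foxp3 in 3 clones.

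Foxp3 followed the clone. For a cell with a Foxp3 UMI, 89.4%, 81.3%, 81.3% and 52.9% of the other cells of its expanded clone also had one, against 1.54%, 11.9%, 42.7% and 11.4% of cells in other expanded clones of the same mouse. For a cell without a Foxp3 UMI, 0.330%, 2%, 30% and 0.216% of its clone mates had one, against 4.18%, 13.8%, 47.5% and 19.8% in other clones. The same-clone share was the higher in all 4 mice for the first and the lower in all 4 for the second. These shares count pairs of cells, so large clones weigh more. In knockout 1, 7 of the 9 expanded cells with a Foxp3 UMI were in 1 clone of 7 cells. Its other clones with a Foxp3 UMI had it in 1 of 5 and 1 of 2 cells. In control 2 the clone of 86 cells, with no Foxp3 UMI, gave most pairs of the second kind. Of the 64 clones of 3 or more cells, 52 had no cell with a Foxp3 UMI, 10 had it in 50% or more of their cells and 2 in fewer. Over all 147 expanded clones, 34 had a Foxp3 UMI.

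The share of cells with a Foxp3 UMI was 10.6%, 12.6%, 21.3% and 36.2% in single clones and 4.04%, 13.4%, 46.2% and 12.5% in expanded clones. It was lower in expanded clones of knockout 1 and control 2, close in knockout 2 and higher in control 1 (exact paired permutation p = 1, with 0.125 the smallest that 4 pairs can give). In B cells of the same libraries, chosen as above without Cd3e or a receptor chain, it was 0.195%, 0.131%, 0.217% and 0.132%. Their median depths were 2485 to 3156 UMIs a cell. Thinned to 1000 UMIs a cell the shares were 1.93%, 3.99%, 9.76% and 16.0% in single and 1.35%, 4.48%, 13.8% and 5.33% in expanded clones. Among cells with a Foxp3 UMI alone, Lag3 was the 1 gene called between expanded and single clones (log2 1.64, adjusted p = 0.0453; edgeR). This fit was chosen after seeing the data and rests on 9, 18, 30 and 19 expanded cells, those of knockout 1 from 3 clones. Of the 28 called genes picked for description, 14 could be tested in it.

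**Figure D5:**
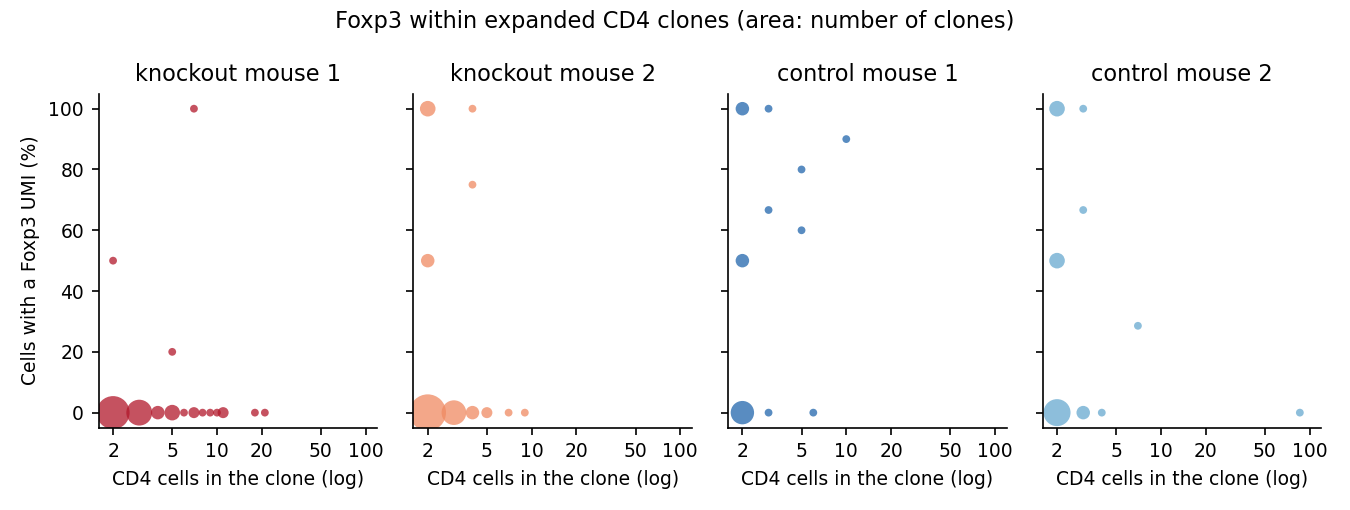
Percent of the cells of a clone with a Foxp3 UMI (vertical axis) against the cells in the clone (horizontal axis, log scale), 1 panel per mouse, with the area of a point set by the number of clones at that place. Clones of 3 or more cells gather at 0%, where 52 of 64 lie, with 10 at 50% or above.

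Invariant NKT cells, which recognise lipids and share the alpha chain of TRAV11 and TRAJ18 while their beta chains vary, were found among single cells alone. They were 8, 6, 2 and 1 of the single cells (3.86%, 2.17%, 1.22% and 0.469%) and 0 of 223, 134, 65 and 152 expanded cells, counts of 0 that allow up to 1.35%, 2.24%, 4.62% and 1.97%. The difference had the same sign in all 4 mice (exact paired permutation p = 0.125, the smallest possible). Without these cells 110 genes were called between the classes.

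Depth per cell did not differ in 1 direction over the mice. The median UMIs per cell were 4628, 4714, 3841.5 and 3840 in single clones and 3814, 4490, 4374 and 3902 in expanded clones, lower in both knockouts and higher in both controls (exact paired permutation p = 0.75). The median share of mitochondrial UMIs was 0.817%, 0.817%, 0.813% and 0.879% in single clones and 0.696%, 0.717%, 0.737% and 0.784% in expanded clones, lower in 4 of 4 mice (p = 0.125, exact, the smallest possible). Cells called as doublets made up 8.99% ± 1.24 of expanded and 9.06% ± 1.13 of single cells (SD, n = 4 mice; exact p = 1). The CDR3 was 41.7 ± 0.831 bases long over expanded and 41.8 ± 0.159 over single clones (SD, n = 4 mice; exact p = 0.625). Cd4 UMIs per cell were 1.83, 1.85, 1.57 and 1.62 against 2.03, 2.29, 1.74 and 2.11, but Cd4 chose the cells and this is given as a description.

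The last question of the design was whether the class difference depended on Tet2. A test of the genotype by class term called 3 of 7941 genes (0.0378%), 370 at an unadjusted p under 0.05, and none of the 101 genes above was among the 3. Of those 101, 7 had an unadjusted p under 0.05 for this term. Xcl1, a chemokine that draws cross-presenting dendritic cells, was at 242, 117, 293 and 345 CPM in single clones and at 248, 238, 31.8 and 44.8 CPM in expanded clones. An Xcl1 UMI was in 18.8%, 19.5%, 13.4% and 9.39% of single cells and in 34.5%, 28.4%, 12.3% and 7.24% of expanded cells. The share of cells was thus close between the classes in the controls and higher in the expanded class of both knockouts. In the controls, the 256 and 439 Xcl1 UMIs of single clones came from 22 and 20 cells. The CPM of Xcl1 was lower in expanded clones of both controls, and in the knockouts level in 1 and higher in the other. The difference between genotypes was 3.56 ± 0.35 (log2, SE; adjusted p = 0.0019; edgeR). The call was lost without control 2 (3.71, adjusted p = 0.0611) and without the largest clone of each mouse (2.78, adjusted p = 0.191). Lag3 differed between genotypes by −0.41 (adjusted p = 0.989), so a dependence of its rise on genotype was not detected with 2 mice per genotype.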

How the data were processed

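Live CD45+ leukocytes of 4 mice were profiled with 10x 5′ gene expression and TCR libraries. The deposited gene files hold whole UMI counts per gene and cell barcode, and the deposited receptor tables hold contigs with UMI counts; the submitters' processing notes name Cell Ranger 8.0.1, Seurat 5.0.1, R 4.4.1 and GRCm39. No deposited cell annotation was used, so cells were taken by the gate described above (at least 200 genes, at most 10% mitochondrial UMIs) and no clusters were made. The members, the 31 gene lists and the tests were chosen with earlier results of these data known.

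Counts were summed per mouse and clone class (8 sums), receptor segment genes were left out, and genes passing filterByExpr were tested with edgeR 4.0.16 (TMM, robust quasi-likelihood, mouse plus class; genotype by class for the interaction) in R 4.3.3. CPM of the classes use TMM-scaled totals; CPM of clones described one by one use raw totals. Named genes were the 10 largest called changes each way with a mean of at least 20 CPM and the same direction in all mice, up to 4 called members per list, up to 5 interaction genes per direction, and fixed genes, of which Cxcr5 and Zbtb16 were among those too low to be tested. Some items are not reported here. Each library comes from 1 mouse, so the block follows from the design. In data simulated for this comparison (7975 genes) 98 of 100 2-fold and 100 of 100 4-fold changes were recovered with 4 false calls. The simulation gave all genes the same dispersion (0.0212) and the same change in every mouse, and changed only genes above a set mean CPM. Recovery of low genes, or of genes that vary between mice or clones, was therefore not tested. Shares were compared by exact permutation over mice. Doublets were called with Scrublet (scanpy 1.11.5) and left out only as an alternative. Between any 2 gene libraries, 272 to 303 barcodes were shared, and 0 of them had the same receptor sequence in 2 mice. Coordinates are from the GENCODE annotation of GRCm39. DESeq2 1.42.0 was the alternative count test.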

Additional observations from a re-analysis of the deposited data

Results flagged for a closer look

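These 3 genes were singled out because the difference between expanded and single CD4 clones differed between the genotypes in a direct test (edgeR, Benjamini-Hochberg adjusted). For Xcl1 the log2 difference was 3.56 higher in knockouts than in controls (adjusted p = 0.0019), with the values given above; it was not called with at least 2 Cd4 UMIs required (3.64, adjusted p = 0.583), without clones holding a cell with a Cd8 UMI (2.99, adjusted p = 0.699) or without cells with a Foxp3 UMI (3.65, adjusted p = 0.376). For Cd79a, a part of the B cell receptor, it was 5.71 higher in knockouts (adjusted p = 0.00396), from 237, 352, 38.9 and 47.2 CPM in single clones and 319, 309, 0 and 1.28 CPM in expanded clones. Cd79a UMIs were in 32 of 223, 24 of 134, 0 of 65 and 1 of 152 expanded cells, and without called doublets and barcodes with 2 beta chains the gene was not called (5.18, adjusted p = 0.828), nor without control 2 (8.52, adjusted p = 0.0611). For C1qb, a complement gene of macrophages, it was −6.47 (adjusted p = 0.0019), from 37.7, 0.544, 116 and 51.9 CPM in single clones and 0.887, 0, 333 and 117 CPM in expanded clones, and the call was lost without knockout 1 (−3.82, adjusted p = 1.00) and without called doublets (−9.25, adjusted p = 0.993).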

How the results depend on the processing

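Between expanded and single clones 101 genes were called. The count was 41 with DESeq2, 346 with no filter on low counts, 1 with no replicate block for mouse, 8 with at least 2 Cd4 UMIs, 65 with clones by TRB and TRA, 163 without clones holding a cell with a Cd8 UMI and 1 among cells with a Foxp3 UMI alone, and 17 to 264 with 1 mouse left out. Of the 101, 97 were called with RLE normalization and 33 with DESeq2. Taking 1 cell per expanded clone gave 127 calls, 39 of them among the 94 of the 101 that were tested. This fit and that of Foxp3 cells alone were chosen after seeing the data. The genotype by class term called 3 genes: 6 with DESeq2, 66 with no filter, 0 with at least 2 Cd4 UMIs (edgeR; 324 at an unadjusted p under 0.05), 1 without doublets, 16 without Cd8 clones, and 7 to 72 with 1 mouse left out. The genotype difference in the expanded share ran from −2.41 to 16.8 points with 1 mouse left out. Expanded minus single turned to −22.9 for genes per cell without Cd8 clones, and to 1.27 points for the Foxp3 share without the largest clones and 0.797 at 2000 UMIs.

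Of the 28 named genes that were called none was called under every alternative, and 1 changed sign, Cd200r1 among Foxp3 cells (−0.18). Sign changes of uncalled genes, as log2 differences, were as follows. Without Cd8 clones they were Tox −0.017, Gzmk −1.05, Icos 0.069, Mki67 −0.10, Ikzf2 −0.042, Bcl6 0.029, Gata3 0.056 and Il2ra 0.0021. Among Foxp3 cells they were Tox −0.31, Cd4 −0.26, Il7r 0.020, Mki67 −0.42, Ctla4 −0.054 and Il2ra 0.33. With 1 cell per clone they were Gzmk −0.23, Icos 0.33, Il7r 0.34, Gzmb −0.091, Mki67 −1.02, Bcl6 0.29, Gata3 0.44, Il2ra 0.56 and Tet2 −0.12. With at least 2 Cd4 UMIs they were Icos 0.062, Ikzf2 −0.10, Cxcr3 −0.24, Bcl6 0.22, Tet2 −0.11 and Foxp3 −0.57. Without the largest clones they were Gzmk −1.18, Gata3 0.071 and Il2ra 0.30, and with DESeq2 Gzmk −0.38. With clones of 3 or more they were Tet2 −0.019 and Foxp3 −0.16. Without doublets Foxp3 was −0.17, with clones by TRB and TRA Il2ra was 0.015, without Foxp3 cells Icos was 0.14, and with no replicate block Tet2 was −0.062. With 1 mouse left out the values ran from −0.54 to 0.076 for Bcl6, −0.093 to 0.53 for Cd40lg, −0.10 to 0.34 for Ctla4, −0.13 to 0.53 for Cxcr3, −0.27 to 0.48 for Foxp3, −0.30 to 0.16 for Gata3, −0.44 to 0.025 for Icos, −0.42 to 0.37 for Il2ra, −0.63 to 0.028 for Il7r, −0.083 to 0.46 for Mki67, −0.20 to 0.42 for Tbx21 and −0.12 to 0.30 for Tet2. Genes with few UMIs and clones met once because few cells were sampled limit what these 1435 cells can show.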

Other observations

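Beta chain segment use is given as shares of clones, so that large clones do not weigh more; the segments named here were picked after their values were seen, and no difference was tested. TRBV2 was used by 8.16%, 18.8%, 18.2% and 10.7% of expanded clones and by 7.73%, 8.66%, 8.54% and 5.63% of single clones, higher in all 4 mice. TRBV1 was used by 14.3%, 18.8%, 4.55% and 10.7% of expanded clones and by 6.28%, 8.30%, 4.27% and 4.69% of single clones, higher in all 4 mice, and by 20 of 147 expanded clones in all. TRBV16 stood at 10.2%, 12.5%, 9.09% and 10.7% against 6.28%, 6.86%, 6.10% and 5.63%, and TRBJ2-1 at 18.4%, 16.7%, 13.6% and 17.9% against 12.6%, 10.1%, 9.76% and 9.86%. TRBV13-3, the segment of the clone of 86 cells, was at 4.08%, 0%, 4.55% and 3.57% of expanded and 5.31%, 4.33%, 9.15% and 7.51% of single clones. TRBV19, TRBV31 and TRBJ1-2 were also lower among expanded clones in all 4 mice, with means of 3.70%, 2.83% and 1.54% against 7.93%, 6.38% and 5.16%. So were the joint call TRBV12-2+TRBV13-2 (mean 6.24% against 10.9%), TRBV12-1, TRBV13-2 and TRBV14. The segments not named here did not move the same way in all 4 mice. With 22 to 49 expanded clones per mouse, 1 clone moves such a share by several points.

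Some receptors recurred. Of 1008 CD4 clones, 2 had the same segments and CDR3 bases in 2 mice, 1 of them expanded in knockout 1 (3 cells) and met once in control 2.
TRBV2 with TRBJ2-7, junction in capitals: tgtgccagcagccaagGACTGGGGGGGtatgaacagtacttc
In 17 further sets, clones with the same segments encoded the same CDR3 amino acids with different bases, 12 of these sets over different mice and 5 within 1 mouse. Sets over different mice cannot come from 1 ancestor; within a mouse some differ by 1 base, and whether these are separate joins or errors in reading was not tested. The 3 pairs in which a clone had at least 5 cells are shown with the bases that differ in capitals.
TRBV16 with TRBJ1-1, knockout 1, 5 cells: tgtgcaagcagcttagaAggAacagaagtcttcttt
TRBV16 with TRBJ1-1, knockout 2, 4 cells: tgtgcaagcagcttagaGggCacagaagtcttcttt
TRBV3 with TRBJ1-5, control 1, 6 cells: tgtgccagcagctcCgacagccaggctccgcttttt
TRBV3 with TRBJ1-5, knockout 2, 1 cell: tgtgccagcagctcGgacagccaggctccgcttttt
TRBV19 with TRBJ2-5, knockout 1, 6 cells: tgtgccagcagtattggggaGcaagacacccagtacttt
TRBV19 with TRBJ2-5, knockout 1, 1 cell: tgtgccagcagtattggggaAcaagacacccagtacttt
The first pair was expanded in both mice. A clone of 2 or more cells was in 11 of the 17 sets.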
